A study of Mus musculus with 4 samples.

Results

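Genes of the centrosome were examined in neurospheres of neural stem and progenitor cells, or NSPC, the cells of the developing forebrain that renew themselves and give rise to neurons and glia. The set held every probe whose annotated gene symbol begins with Cep and a digit, Tubgcp or Haus, or is Pcnt, Cdk5rap2, Cenpj, Stil, Nin, Ninl, Pcm1, Odf2, Tubg1, Plk4 or Sass6, provided that it was detected on at least 2 of the 4 arrays. The Illumina bead array carried 127 such probes for 58 genes, and 67 probes of 45 genes were detected, out of 18237 detected among all 45259 probes. The cells came from the neocortex of mice of a Cre/LoxP-based conditional transgenic line on the C57BL/6 background. One group overexpressed Bmi1, a polycomb protein that sustains self-renewal, and the other was transgenic control, with 2 biological replicates and 1 array each. All cells grew in suspension with the growth factors EGF and FGF2, each at 20 ng/ml, and were harvested as neurospheres on day 5. The labels used here name neither the Cre driver, nor the mice's age, nor the number of mice behind a culture.

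A centrosome holds a pair of centrioles surrounded by pericentriolar matrix, and it is the main site at which an animal cell starts microtubules. Once per cell cycle the kinase Plk4, brought to the mother centriole by Cep152 and its partners, triggers a cartwheel of Stil and Sass6 on which a new centriole is built. The gamma-tubulin ring complex starts microtubules at the matrix, and the multi-subunit augmin complex (Haus genes) starts further ones along the fibres of the spindle. In neural progenitors the mother centriole also carries the primary cilium, and loss of several of these proteins causes microcephaly in humans.

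The deposited scanner table and the deposited processed table name the groups in opposite ways, since each processed column filed under one group correlated at 1.00 (Spearman, across probes) with an array headed as the other group and at most at 0.899 with the rest. Arrays are named here by the scanner headers, as labelled Bmi1 or labelled control, and every direction given below turns if the processed table is right. The single probe for Bmi1 does not settle the names, which read 79.4 and 62.7 in the controls against 53.3 and 77.7 in the arrays labelled Bmi1. Of all probes, 16495 to 18242 were detected per array, fewest on the second array labelled Bmi1, which also had the lowest mean signal (191 against 215 to 233). Control array 1 stood apart by sex-linked transcripts, where the probes of Xist read 114.7 to 970.5 and elsewhere 8.4 or less, and an Eif2s3y signal of at most 6.2 against 204.6 to 239.6. Progenitor markers were present, 9 of 12 listed being tested, with summed signals of 21825.2 and 29214.4 in the controls against 26505.3 and 28697.3 in the arrays labelled Bmi1. These sums are of scanner signals, and Slc1a3 made up most of each, at 15381.3 and 18868.9 against 18637.4 and 20098.2. Pax6 and Prom1, also on that list, had no probe detected on 2 arrays.

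Most centrosomal genes lay slightly higher in the arrays labelled Bmi1, by less than the test could call over all features. The median log2 difference over the 45 genes was 0.20, against 0.01 over all 12809 features tested, and 34 of the 45 (75.6%) were higher, against 50.9% of all features. None of the 45 passed limma's moderated test at an adjusted p of 0.05, where 0 of all 12809 features did. At an unadjusted p under 0.05, the threshold by which genes are called higher or lower below, there were 8 of 45 (17.8%), against 22.0% of all features. The order of these shares turned in some settings, to 14 of 45 (31.1%) against 24.6% with median scaling over detected probes and 17 of 58 (29.3%) against 13.3% with no filter on dim probes. The shares without the filter are of unlike sets, since 45 of the 58 genes but 12809 of the 29444 features had a detected probe. The 8 of the main fit were all higher, and a share of 12.2% of all features were called higher and 9.76% lower at that threshold. The 2 arrays of each group did not overlap for 29 genes (64.4%), against 54.8% of all features, and of these 23 (51.1%) were higher and 6 (13.3%) lower, against 28.6% and 26.2%. Without control array 1 the order turned, with 31 of 45 genes apart (68.9%) against 74.7% of all features. The direction depended on the scale: with arrays centred on the median of all probes, which shifted the median of all features to -0.20, the centrosomal median was -0.01. In that scale 3 centrosomal genes were called higher and 6 lower (20% of 45), against 506 higher and 2481 lower of all 12809 features (23.3%). Relative to all features the median stood 0.18 above in that scale and 0.19 above in the quantile-normalized one. In bulk cultures, fewer cells of a type and less RNA per cell cannot be told apart.

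**Figure D1:**
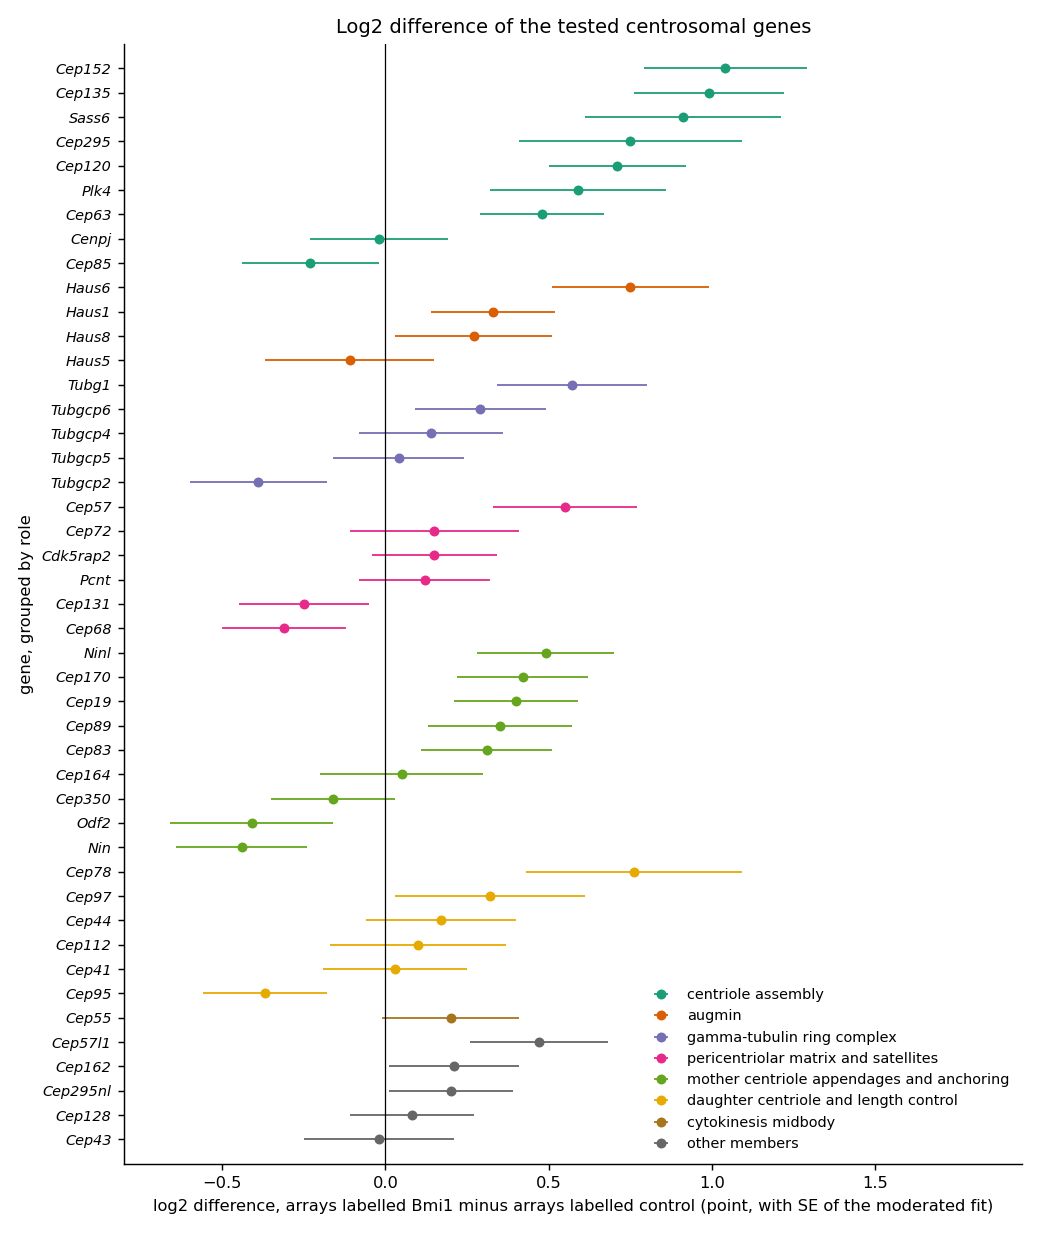
Log2 difference of each of the 45 tested centrosomal genes (x axis, arrays labelled Bmi1 minus arrays labelled control) with its standard error, grouped by role (y axis). In this quantile-normalized scale 34 points lie above 0 and 11 below, while with median scaling over all probes 20 lie above and 25 below. Centriole assembly genes reach furthest to the right, with Cep152 at 1.04.

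The arrays of a group also differed among themselves. The median absolute gap between the 2 control arrays was 0.18 for the centrosomal genes on the log2 scale, and between the 2 arrays labelled Bmi1 it was 0.26, against a median absolute group difference of 0.31. As deviations from a gene's own average, the median stood at -0.14 in the first control, -0.05 in the second, 0.07 in the first array labelled Bmi1 and 0.15 in the second. Control array 1 gave the lowest value of the 4 for 19 of the 45 genes, and the second array labelled Bmi1 gave the highest for 26.

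Centriole assembly held the largest differences of the set. Of 9 genes tested, 7 were higher and 2 lower, with a median log2 difference of 0.71 against 0.01 over all features. The called ones were 5 (55.6%), all higher, where the share called among all features was 22.0%, and 12.2% for those called higher. This role list was drawn up after earlier results of the same data had been seen, so its share is descriptive only. Cep152, the scaffold that recruits Plk4 to the mother centriole, read 33.7 and 44.4 in the controls against 65.5 and 84.3 in the arrays labelled Bmi1. Its normalized log2 level was 6.69 ± 0.43 against 5.65 ± 0.13 (mean ± SD, n = 2 each), a 2.06-fold difference (log2 1.04, SE 0.25, limma adjusted p = 0.133). Both arrays labelled Bmi1 lay above both controls. Cep135, which links the cartwheel to the centriole wall, stood at 7.9 and 9.4 on the controls and at 23.9 and 32.3 on the others. These signals are near the detection floor on the control arrays, where the lowest signal of any detected probe was 7.7. The log2 difference was 0.99 (SE 0.23, limma adjusted p = 0.133), and 0.52 in the processed values. Both genes kept an unadjusted p under 0.05 when any single array was left out, with 0.73 to 1.25 for Cep135 and 0.74 to 1.34 for Cep152, and also with median scaling over all probes (0.82 and 0.72).

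Sass6, the protein that forms the cartwheel's spokes, read 19.9 and 15.3 in the controls against 28.3 and 49.2. Its log2 difference was 0.91 (SE 0.30, limma adjusted p = 0.159), and the spread between the arrays labelled Bmi1 (SD 0.59) was wider than that of the controls (SD 0.17). It stood at 0.50 without the second array labelled Bmi1 and at 0.80 without control array 2, each with an unadjusted p above 0.05, and at 0.54 in the processed values. Cep120, needed for the elongation of new centrioles, had signals of 606.1 and 530.7 against 790.1 and 798.1, a 1.64-fold difference (log2 0.71, SE 0.21, limma adjusted p = 0.144) that was 0.59 and not called without control array 2. Cep63, the partner of Cep152, had 741.9 and 777.9 against 937.6 and 883.7, and a log2 difference of 0.48 (SE 0.19, limma adjusted p = 0.208). The groups did not overlap for any of these 3 genes, and Cep63 had an unadjusted p above 0.05 whenever a single array was left out, with values of 0.42 to 0.53.

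The other centriole assembly genes did not pass even the unadjusted threshold in the main fit. Plk4, the kinase that starts duplication, read -0.7 and 14.5 in the controls against 14.1 and 19.9. It was undetected on control array 1 alone, and its log2 difference of 0.59 (SE 0.27, limma adjusted p = 0.252) was 0.30 without that array and 0.38 without the second array labelled Bmi1. Cep295, which lets a new centriole mature into a centrosome, was likewise low on control array 1, at 55.3 against 142.7 on control array 2 and 139.6 and 112.4 on the others. Its log2 difference was 0.75 (SE 0.34, limma adjusted p = 0.247). Cenpj, a regulator of centriole length, was near the detection floor, at 7.4 and 9.2 against 4.0 and 9.5, and Cep85 had 24.8 and 18.0 against 11.9 and 13.5. Their log2 differences were -0.02 and -0.23, and the groups overlapped for both.

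**Figure D2:**
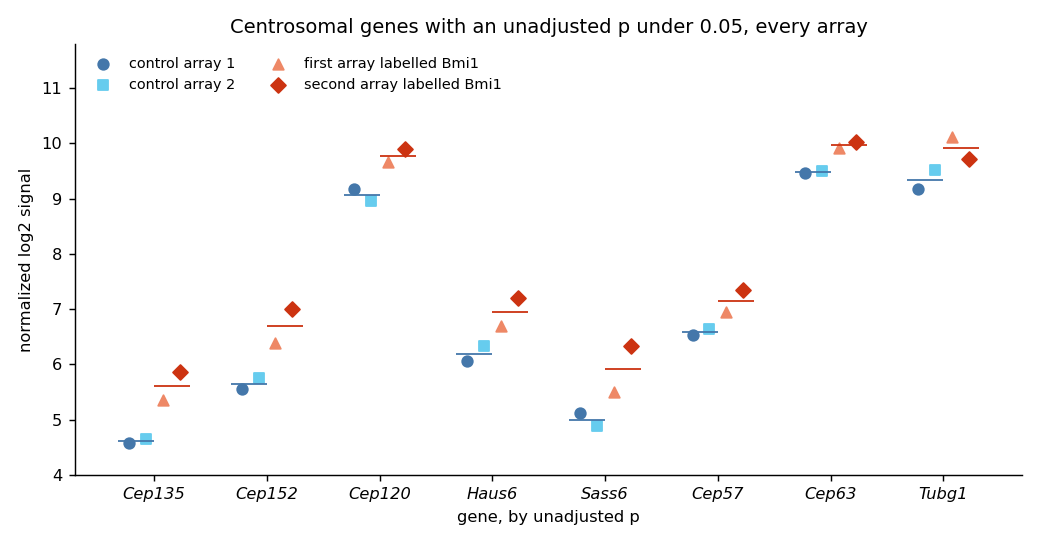
Normalized log2 signal (y axis) of the 8 centrosomal genes with an unadjusted p under 0.05 (x axis) on each of the 4 arrays, with short lines at the group means. Both arrays labelled Bmi1 lie above both control arrays for each gene, and the second lies above the first for all but Tubg1. Levels of different probes are not comparable with each other. With median scaling over all probes, Cep152, Cep135 and Sass6 alone of these 8 stayed at an unadjusted p under 0.05.

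The promoters of the 4 genes with the largest differences among those called and present in the RefSeq promoter table are shown because centriole genes and mitotic genes are read side by side below. Each runs 5′ to 3′ along the gene from 250 bases before to 50 after its start, in build GRCm38.p6, with matches to a cell-cycle motif in capitals. The motifs were the CHR element (TTTGAA or TTCGAA), the CCAAT box bound by NF-Y (CCAAT) and E2F-type sites (TTTCGCG or TTTGGCG or TTTCCCG or TTTGCCG), each on both strands, and none of their matches overlapped in these 4 promoters.
Cep135 (chr5:76588449-76588748, plus strand): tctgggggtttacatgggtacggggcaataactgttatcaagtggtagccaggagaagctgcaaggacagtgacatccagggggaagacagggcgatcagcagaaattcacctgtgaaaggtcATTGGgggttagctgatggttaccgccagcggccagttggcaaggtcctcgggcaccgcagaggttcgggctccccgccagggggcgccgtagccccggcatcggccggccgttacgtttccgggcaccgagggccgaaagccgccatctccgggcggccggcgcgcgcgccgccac
Cep152 (chr2:125625064-125625363, minus strand): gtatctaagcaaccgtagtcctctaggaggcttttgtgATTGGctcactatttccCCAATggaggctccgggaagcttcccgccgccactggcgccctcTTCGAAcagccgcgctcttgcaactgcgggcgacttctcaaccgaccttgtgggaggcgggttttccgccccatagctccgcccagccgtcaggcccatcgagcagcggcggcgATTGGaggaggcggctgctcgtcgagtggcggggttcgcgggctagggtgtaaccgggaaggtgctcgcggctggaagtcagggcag
Sass6 (chr3:116594708-116595007, plus strand): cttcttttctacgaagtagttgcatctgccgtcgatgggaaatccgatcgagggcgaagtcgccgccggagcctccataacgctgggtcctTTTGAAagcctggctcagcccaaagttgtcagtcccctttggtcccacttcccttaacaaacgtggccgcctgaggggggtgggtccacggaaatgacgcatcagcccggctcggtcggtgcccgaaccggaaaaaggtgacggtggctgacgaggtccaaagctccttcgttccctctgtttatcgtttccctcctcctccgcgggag
Haus6 (chr4:86612006-86612305, minus strand): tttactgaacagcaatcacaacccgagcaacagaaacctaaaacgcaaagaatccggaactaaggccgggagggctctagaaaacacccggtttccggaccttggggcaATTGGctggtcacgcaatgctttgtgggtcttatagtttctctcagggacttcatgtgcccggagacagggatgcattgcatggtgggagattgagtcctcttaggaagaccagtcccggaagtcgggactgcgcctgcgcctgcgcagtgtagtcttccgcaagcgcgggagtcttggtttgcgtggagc
The Cep152 promoter held 1 CHR match, first base at -151, and 3 CCAAT matches, at -212, -195 and -37. Sass6 held 1 CHR match at -159. Cep135 and Haus6 held 1 CCAAT match each, on the opposite strand, at -127 and -141. None of the 4 held an E2F-type match in these letters. Of the 7 promoters of all called centrosomal genes found there, 3 held an E2F-type match (42.9%, against 6.7% of all promoters). These belong to Cep63 and to overlapping promoters of Cep57. A CCAAT match lay in 5 of the 7 (71.4% against 37.4%) and a CHR match in 2 (28.6% against 19.2%).

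Across the set, the 39 of 45 tested genes found in that table have 50 promoters. A CHR match lay in 18 of them (36%), against 19.2% of all 32851 promoters of the same length and 82.6% of the 23 promoters of a mitotic gene list. Within 50 bases of the start the shares were 16%, 5.31% and 78.3%. E2F-type matches lay in 10 centrosomal promoters (20%), against 6.7% of all and 13% of the mitotic ones. CCAAT matches lay in 21 (42%), against 37.4% and 82.6%. These shares describe letters in a window.

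**Figure D3:**
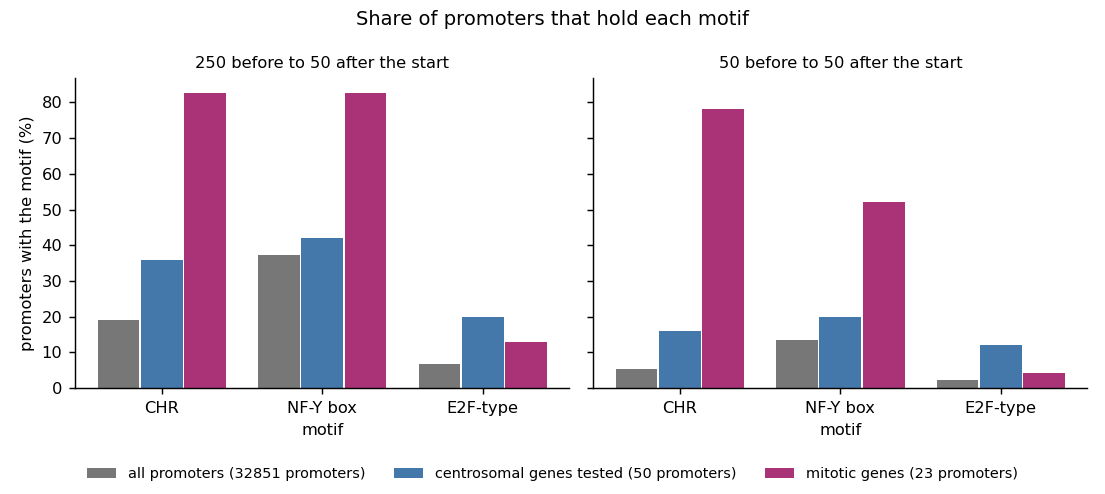
Share of promoters (y axis, percent) with at least 1 match to each motif (x axis), in the whole 300-base window (left) and within 50 bases of the start (right), for all promoters, the tested centrosomal genes and a mitotic gene list. CHR matches near the start are in 78.3% of the mitotic promoters and 16% of the centrosomal ones.

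Augmin genes gave 1 called member among 4 tested (25%), near the 22.0% of all features. Haus6, a subunit of augmin, read 55.4 and 76.1 in the controls against 84.7 and 101.1. Its log2 difference was 0.75 (SE 0.24, limma adjusted p = 0.158), with a second probe at 34.6 and 51.7 against 79.3 and 98.0 and a difference of 1.15 (SE 0.25). Both probes separated the groups. The first probe stood at 0.50 without the second array labelled Bmi1, at 0.62 without control array 1 and at 0.42 with median scaling over all probes, each with an unadjusted p above 0.05. Haus1 had 117.7 and 113.5 against 124.9 and 103.5 (log2 0.33) and Haus8 125.7 and 199.6 against 154.8 and 145.6 (log2 0.27), and both turned sign with median scaling over all probes. Haus5 had 79.9 and 141.9 against 74.1 and 73.3 (log2 -0.11), its control arrays lying apart, and its other probe stood at 0.26. Haus2, Haus3, Haus4 and Haus7 had no probe detected on 2 arrays.

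Subunits of the gamma-tubulin ring complex went in both directions. Tubg1, the gamma-tubulin that nucleates microtubules, read 603.7 and 781.9 in the controls against 1089.2 and 696.5. After normalization its log2 level was 9.92 ± 0.29 against 9.34 ± 0.24, a difference of 0.57 (SE 0.23, limma adjusted p = 0.216). In the signals the groups overlapped and in the normalized values they did not. The difference was 0.37 without the first array labelled Bmi1, and of the arrays left out in turn only the second labelled Bmi1 left it called, at 0.78. Tubgcp2, a core ring subunit, had 596.6 and 693.6 against 482.7 and 332.1, a log2 difference of -0.39 (SE 0.21, limma adjusted p = 0.313), with the groups apart. With median scaling over all probes it was -0.66 and called lower. Tubgcp4 at 0.14, Tubgcp5 at 0.04 and Tubgcp6 at 0.29 had limma adjusted p of 0.751, 0.932 and 0.420, and the other Tubgcp4 probe stood at -0.10. Tubgcp6 lay near the floor, at 5.1 and 9.3 against 12.2 and 11, and was undetected on control array 1. Tubgcp3 was below detection on all arrays.

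Proteins of the pericentriolar matrix showed no common direction, with 4 of 6 tested higher and a median log2 difference of 0.14. Pcnt, the pericentrin scaffold of the matrix, read 50.6 and 44.8 in the controls against 48.7 and 33.7 (log2 0.12, SE 0.20). Cdk5rap2, a microcephaly protein that anchors gamma-tubulin rings, had 158.0 and 181.3 against 154.5 and 138.9 (log2 0.15, SE 0.19), and its second probe stood at -0.06. Both turned sign with median scaling over all probes, to -0.17 and -0.19. Cep57, a matrix protein of the centriole's vicinity, was the called member of this list, at 84.9 and 98.4 against 104.0 and 114.1. Its log2 difference was 0.55 (SE 0.22, limma adjusted p = 0.204), its second probe stood at 0.54, and it stayed called with the first array labelled Bmi1 left out (0.75) and with no other left out (0.35 to 0.60). Cep68, a linker between the centrioles, had 49.8 and 54.3 against 33 and 26 (log2 -0.31), and the satellite protein Cep131 had 195.5 and 178.7 against 136.5 and 100.6 (log2 -0.25). The groups lay apart for both, and both were called lower with median scaling over all probes. Cep72 lay at the floor, at 7.6 and 8.5 against 3.4 and 14.8 (log2 0.15).

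Proteins of the mother centriole's appendages divided as well, 6 of 9 higher and 3 lower, with none called in the main fit. With no filter on dim probes, Nin was called lower and Ninl, Cep170 and Cep19 higher. Nin, which anchors microtubules at the subdistal appendages, read 234.4 and 216.5 in the controls against 150.7 and 101.3. Its log2 difference was -0.44 (SE 0.20, limma adjusted p = 0.257), and with median scaling over all probes it was -0.79 and called lower. Its other detected probes stood at -0.14 and -0.56. The probe at -0.56 had signals of 12.8 and 18.1 against 2.9 and 0.6, undetected on the arrays labelled Bmi1. It passed the detection rule only through the controls, so its direction carries no weight. Odf2, which both kinds of appendage require, had 89.7 and 76.6 against 63.0 and 30.2, a log2 difference of -0.41 (SE 0.25, limma adjusted p = 0.380). It was -0.13 without the second array labelled Bmi1, and -0.71 and called lower with median scaling over all probes. Its other probes stood at -0.40 and -0.06. Ninl, the relative of ninein, had 48.4 and 50.9 against 76.1 and 44.4 (log2 0.49, SE 0.21), and was called higher at 0.51 with median scaling over detected probes. Cep164, the distal appendage protein that docks the cilium's vesicles, had 79.9 and 63.9 against 50.6 and 61.9 (log2 0.05, SE 0.25), and its sign turned with the array left out. Cep170 at 0.42, Cep19 at 0.40, Cep89 at 0.35 and Cep83 at 0.31 were higher with the groups apart, and the sign of Cep89 and Cep83 turned with median scaling over all probes. Cep350 was detected on both control arrays, at 7.8 and 8.9, and not well above background on either array labelled Bmi1, at 3 and 5.1. Its normalized control mean lay under the detection floor of those arrays, so no fold is given.

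None of the remaining genes was called in the main fit. Cep78 read 382.2 and 376.4 in the controls against 401.8 and 717.8, a log2 difference of 0.76 (SE 0.33, limma adjusted p = 0.227), the second of these lying far above the rest. Cep95 had 228.1 and 252.7 against 157.7 and 124.9 (log2 -0.37), with the groups apart. Cep97, which caps the growing centriole with its partner Ccp110, stood at 0.32, Cep44 at 0.17, Cep112 at 0.10 and Cep41 at 0.03, and their groups overlapped. Cep55, which brings the membrane-cutting machinery to the midbody at the end of division, lay at the floor, with signals of 4.2 and 11.2 against 12.4 and 8.6 (log2 0.20, SE 0.21). Of the 5 genes outside the role lists, Cep57l1 stood farthest out at 0.47 (limma adjusted p = 0.245), followed by Cep162 at 0.21, Cep295nl at 0.20, Cep128 at 0.08 and Cep43 at -0.02. Cep162 read 10.1 and 9 against 10.1 and 13.8, and Cep295nl 6.2 and 7.9 against 9.5 and 10.3, both near the detection floor, and Cep295nl was undetected on control array 1.

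The detection rule left out 13 genes, namely Cep126, Cep170b, Cep20, Cep250, Cep70, Cep76, Haus2, Haus3, Haus4, Haus7, Pcm1, Stil and Tubgcp3. Just outside the rule were Haus3, detected on 1 array and at most at 8.8, and Pcm1, the organiser of centriolar satellites, with 1 of 5 probes detected on 1 array at 14.6. Just inside it, on 2 arrays each, were Cenpj, Cep55, Cep72 and Cep350. Of the 45 tested genes, 38 were detected on all 4 arrays. The 2 Stil probes read at most 2.2, while Sass6 and Plk4, which act with it, were detected.

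Where a gene had several detected probes they mostly pointed the same way. Of 16 such genes, 11 had all probes of 1 sign and 5 had both, namely Cdk5rap2, Cep43, Cep83, Haus5 and Tubgcp4. The next brightest Cep120 probe, at 81.5 and 50.5 on the controls and 64.1 and 45.1 on the others, stood at 0.11 with the groups overlapping. A dimmer Cep120 probe, at 23.3 and 21.3 against 32.9 and 28.6, stood at 0.52, and the dimmest detected one at 0.11. The dimmer Cep63 probe stood at 0.11. With every detected probe as its own feature, 12 of 67 probes had an unadjusted p under 0.05, against 20.8% of all 18237, and for 40 the groups did not overlap, against 53.6%. Of the 12, 11 were higher and 1 lower, the dim Nin probe that passed the detection rule only through the controls.

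**Figure D4:**
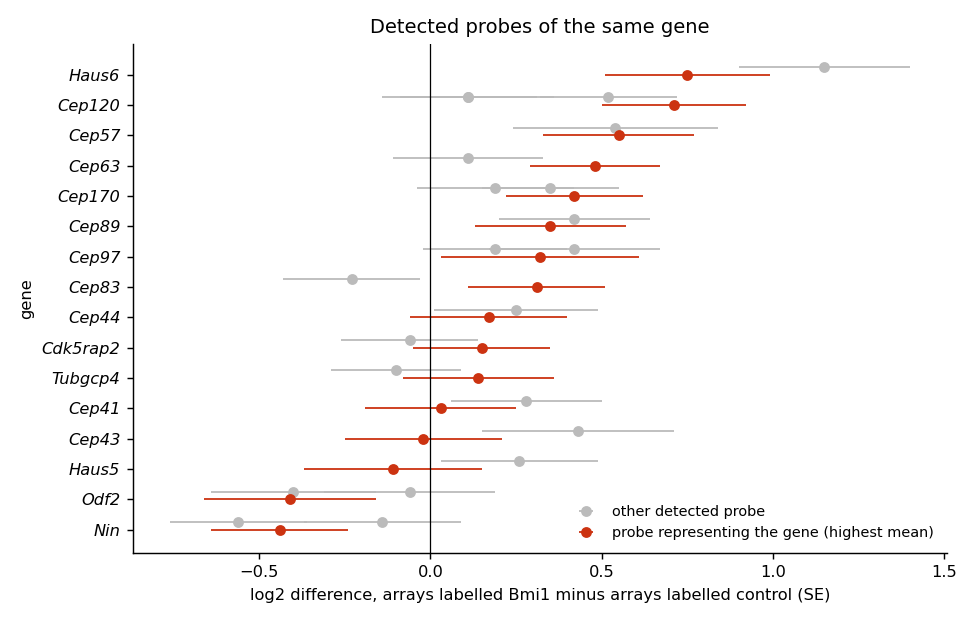
Log2 difference with its standard error (x axis) of every detected probe of the 16 centrosomal genes with more than 1 (y axis), the probe representing the gene in red and the others in grey. Both Haus6 probes (0.75 and 1.15) and both Cep57 probes (0.55 and 0.54) lie to the right of 0, while the probes of Cep83 and Haus5 lie on opposite sides.

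Other genes of the centrosome were divided, while mitotic genes were higher. Of 63 further centrosome genes listed, 41 were tested, 27 higher and 14 lower, with a median log2 difference of 0.14. At an unadjusted p under 0.05, 6 were higher and 2 lower (19.5% of the list against 22.0% of all features), none passing the adjusted test. The higher ones of smallest p were Plk1, a mitotic kinase that matures the centrosome (1.94, SE 0.39), Cspp1 (0.99, SE 0.23), Tedc1 (0.97, SE 0.24) and Tpx2, which activates Aurora A on the spindle (1.16, SE 0.29). Bbs4, a satellite and cilium protein, was among the lower ones at -0.65 (SE 0.19), followed in p by Aspm at 0.80 (SE 0.24), the spindle pole protein whose loss causes microcephaly. Of 25 mitotic genes listed, 16 were tested and all were higher, with a median of 0.94. At an unadjusted p under 0.05 there were 10 (62.5%), against 22.0% of all features called and 12.2% called higher, and none passed the adjusted test. Among the 10, Ect2 read 5 and 4.6 in the controls against 11.5 and 14.9. It passed the detection rule only through the arrays labelled Bmi1, so its direction carries no weight. The median deviation of the 16 stood at -0.83 in the first control, -0.07 in the second, 0.22 in the first array labelled Bmi1 and 0.74 in the second. The medians of the centriole assembly genes, in the same order of arrays, were -0.34, -0.22, 0.19 and 0.47. Summed mitotic signals were 7632 and 14128.1 on the controls against 15517.8 and 19030.5, and their part in the centrosomal differences was not tested.

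**Figure D5:**
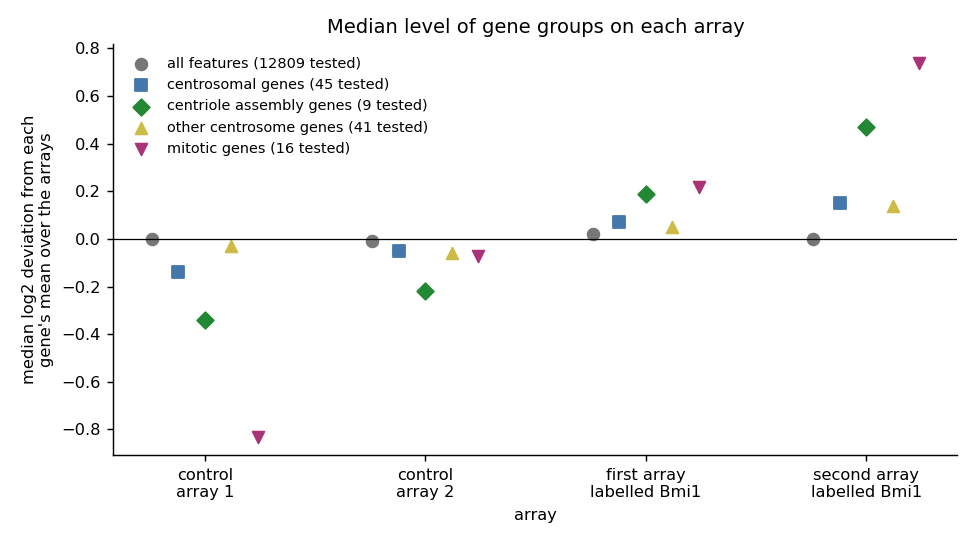
Median log2 deviation from a gene's own average (y axis) on each array (x axis), for all features, the centrosomal genes, centriole assembly genes, other centrosome genes and mitotic genes, after quantile normalization. All features stay within 0.02 of 0, the centrosomal genes run from -0.14 to 0.15 and the mitotic genes from -0.83 to 0.74.

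Most markers of oligodendrocytes and astrocytes stood lower in the arrays labelled Bmi1. Of 12 oligodendrocyte lineage genes listed, 10 were tested, 7 lower and 3 higher. At an unadjusted p under 0.05 there were 6 (60%), all lower, against 9.76% of all features called lower. Summed scanner signals of the 10, not normalized, were 35420.2 and 23651.8 in the controls against 22019 and 16998, with Mog below detection. Olig1, at a log2 difference of 0.09, gave the largest part of each sum, at 14016.2 and 13941.6 against 14464.3 and 13412.6. The median normalized log2 difference of the 10 was -0.91. Of 9 astrocyte genes, 8 were tested and 7 were lower, 6 at that threshold (75%). Their summed signals were 19549.9 and 25105.4 against 19602.7 and 13104.4, with S100b below detection. Sox9, which was not lower (log2 0.36), gave the largest part of each sum, at 7010.9 and 11498.3 against 12645.2 and 8348.5. The median normalized log2 difference of the 8 was -0.79. No marker of either list passed the adjusted test. Of 10 neuronal genes 7 were tested, 4 lower, with sums of 4165.6 and 4123.8 against 3310.7 and 1987.9, while Tubb3, Snap25 and Stmn2 were below the detection rule. Multiciliated ependymal cells, which make centrioles in large numbers, left little signal: 5 of 11 genes were tested with sums of 44.4 to 73.9, and Mcidas, Gmnc and Deup1 read at most 5.8. None of the 5 endothelial genes was tested, and 2 of 6 microglial genes were. These 2, Aif1 at 0.46 and Csf1r at 0.38, were undetected on both controls. They passed the detection rule only through the arrays labelled Bmi1, so their direction carries no weight. Their sums were near the floor, at 10.3 and 11.3 in the controls against 23.5 and 26.1. The part of these cell types in the centrosomal differences was not tested.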

How the data were processed

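RNA of 4 neurosphere cultures was hybridised as biotinylated cRNA to Illumina bead arrays, per the labels' protocols. Per the file headers, the deposited scanner table gives an intensity and a detection value per probe and array. The deposited intensity values were already background-subtracted, since 31.2 to 33.9% of an array's signals lay at or below 0, and the deposited detection values were read as 1 minus the detection p because they rise with the signal. A second deposited table gives the authors' processed log2 values of the same arrays; the labels do not name their transform. The submitters' processing notes name lumi, with no version. Rows with no identifier (22) were dropped, and both arrays labelled Bmi1 share 1 header, so they are called first and second by their place.

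Normalization used the neqc function (offset 16, quantiles) of limma 3.58.1, run in R 4.3.3, and probes with a detection p under 0.05 on at least 2 arrays were kept. The annotation pairs 34872 probes with 1 symbol, 18 with several and 10369 with none, and no symbol of the set had changed in the current RefSeq table. Each gene was represented by its probe of highest mean. Groups were compared with lmFit and eBayes (two-sided, total degrees of freedom 7.23), with Benjamini-Hochberg adjustment over 12809 features. The model was also run on simulated data with 200 features shifted by a log2 of 2. That shift is larger than any centrosomal difference given here, so the run does not show how the test performs at these sizes. The members, role lists and further lists were chosen with earlier results of these data known. Genes described with values on every array are those with an unadjusted p under 0.05, most of a list of core genes and some further members. Others are given by their differences. Of the 2 arrays per group, the labels say biological replicates, and their number limits the precision. The files used here name no slide or date of scanning, and batches were therefore not tested. Replicate numbers are carried by the processed table alone, where samples of the same number had deviations from their group means that correlated at -0.20.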

Additional observations from a re-analysis of the deposited data

How the results depend on the processing

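With every alternative on all 4 arrays, 0 features passed an adjusted p of 0.05, and leaving out 1 array gave 0 to 5, none a centrosomal gene. Features at an unadjusted p under 0.05 numbered 2817, and 1067 to 3533 with 1 array left out, 1067 without control array 1 and 1428 without the second array labelled Bmi1. With median scaling over all probes they split into 506 higher and 2481 lower, and with median scaling over detected probes, an alternative chosen after seeing the data, into 2162 higher and 984 lower, against 1567 and 1250. Centrosomal genes at that threshold numbered 8, and 4 to 11 with 1 array left out (4 without control array 1, 5 without control array 2, 5 without the second array labelled Bmi1), 14 (31.1% against 24.6% of all features) with median scaling over detected probes and 17 of 58 (29.3% against 13.3%) with no filter on dim probes. Their share was 8.89 to 24.4% with 1 array left out, against 8.33 to 27.6% of all features. Their median of 0.20 was -0.01 with median scaling over all probes. In the processed values it was 0.13 under the scanner names and -0.13 under their own group names, the last with or without a replicate block. Under those own names the replicate block gave 7 called centrosomal genes, all lower (15.6% against 19.8% of all features). The crossed replicate block, added after seeing the data, gave 13, 1 higher and 12 lower (28.9% against 25%). Without a block 11 were called in the processed values, 1 higher and 10 lower (24.4% against 22.2%). Genes whose groups do not overlap numbered 29 (64.4% against 54.8%) and 31 to 42 with 1 array left out (68.9 to 93.3% against 74.7 to 82.5% of all features), below all features without control array 1.

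With median scaling over all probes the sign turned for 14 of the 45 genes, all to lower, among them the core genes Cdk5rap2 (-0.19), Cep164 (-0.28), Haus1 (-0.02), Haus8 (-0.07), Pcnt (-0.17), Tubgcp4 (-0.08) and Tubgcp5 (-0.20), and with median scaling over detected probes for 3, Cenpj (0.27), Cep350 and Cep43. With 1 array left out, Cenpj ran from -0.17 to 0.14, Cep164 from -0.20 to 0.29, Haus5 from -0.43 to 0.21, Haus8 from -0.01 to 0.54, Tubgcp4 from -0.03 to 0.31 and Tubgcp5 from -0.05 to 0.13. The causes were not tested. Signals near the detection floor of 7.7 to 9 limit Cenpj, Cep55, Cep72, Cep350, Cep135, Plk4, Tubgcp6, Cep295nl and Cep162, among others.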
